A study of Schizosaccharomyces pombe with 30 samples.

Results

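The data described here are the Seb1 crosslink sites on 4 ubiquitin genes of the fission yeast Schizosaccharomyces pombe, ubi1, ubi3, ubi4 and ubi5. They are 4 of the 5113 protein-coding genes that the RefSeq annotation of ASM294v3 places on the 3 nuclear chromosomes. The genes were chosen by symbol with their site counts in this list already known, so the counts themselves are given as a description, with no test. A site was assigned to a gene when it lay on the same strand, from the annotated transcription start site (TSS) to a point 250 nt downstream of the annotated 3′ end.

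The sites come from 1 photoactivatable-ribonucleoside-enhanced crosslinking and immunoprecipitation (PAR-CLIP) library, made from h- cells in which the genomic copy of Seb1 carries a TAP tag (seb1::seb1-TAP::KanMX). Per the series' design text, binding was normalised to RNA levels from RNA-Seq of WT cells, for which the labels give 1 library of h- cells. For both libraries the labels describe cultures at 30 °C in medium with 4% glucose, 10 mg/l uracil and 100 µM 4-thiouracil, to which 900 µM 4-thiouracil was added for 4 h, followed by 12 J/cm2 of UV light at 365 nm. For the RNA-Seq culture the study's methods give a lower UV dose than the labels do. The uridine analogue is built into new RNA, and UV light links it to a bound protein. Reverse transcription across a linked uridine reads C, so a T-to-C transition marks the linked base. Neither library has a replicate, and no difference between genes or regions below was tested against replicate error.

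Ubiquitin is a small protein that cells attach to other proteins, for example to mark them for destruction by the proteasome. It is made only as a fusion and cut free afterwards. In ubi1 and in a further gene, ubi2, a single ubiquitin is followed by a protein of the large ribosomal subunit, and in ubi3 and ubi5 by a protein of the small subunit. ubi4 encodes polyubiquitin, head-to-tail copies with no ribosomal tail, and its counterpart in budding yeast is known as a stress-induced gene. Seb1 is an RNA-binding protein with a domain that contacts the C-terminal domain of RNA polymerase II (Pol II), and it acts in 3′ end formation and transcription termination.

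The RNA around the sites with the most transitions is shown first, since the results on motifs and on distance turn on it. Sequences are the reference ASM294v3 from RefSeq, 5′ to 3′ on the crosslinked strand, written as DNA, with capitals marking TGTA (UGUA in RNA), the tetramer searched for around sites. In the short windows the crosslinked base is number 15 of 29. The ubi1 window in the 3′ UTR lies at chrI:3969500-3969528 on the plus strand. The second ubi1 window, at chrI:3969574-3969602, is around the site with the most transitions among those after the 3′ end. On ubi5, 3 sites tie at 3 transitions, and 2 of them are shown, one in the coding sequence at chrI:3108719-3108747 and one in the 3′ UTR at chrI:3108313-3108341, both on the minus strand.
ubi1 3′ UTR: gaaattcacTGTAgTGTAgcaaaattcga
ubi1 after the 3′ end: tggagctatTGTAgtgtggatagtatttg
ubi5 coding: tcgctggtaagcagttagaagatggacgt
ubi5 3′ UTR: attgaaaatacttatatTGTAaatggtta

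The other windows are longer, because on ubi3 and ubi4 the sites after the 3′ end are spread out. The ubi3 stretch is the 140 nt that follow the annotated 3′ end, at chrI:3237755-3237894 on the minus strand, and it holds 13 sites. They lie at bases 1, 4, 13, 29, 42, 52, 58, 94, 102, 118, 128, 134 and 138 of the stretch. The ubi4 stretch is the 160 nt that follow the annotated 3′ end, at chrII:1044111-1044270 on the minus strand, with sites at bases 23, 82 and 154. Each stretch holds 2 UGUA tetramers.
ubi3: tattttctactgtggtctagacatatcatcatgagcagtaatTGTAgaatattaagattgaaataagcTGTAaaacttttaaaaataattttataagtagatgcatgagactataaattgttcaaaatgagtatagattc
ubi4: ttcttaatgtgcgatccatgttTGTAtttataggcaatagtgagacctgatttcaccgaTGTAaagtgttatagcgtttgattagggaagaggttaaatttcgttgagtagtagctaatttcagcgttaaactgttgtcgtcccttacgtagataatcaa

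The whole list holds 15824 sites, of which 15789 lie on the nuclear chromosomes, all of them on a T of their strand. A nuclear site had a median of 13 covering reads and 2 transitions. The 45 sites of the ubiquitin genes were covered by 10 to 208 reads and carried 2 to 33 transitions, with medians of 67 reads and 4 transitions. Reads are not independent molecules where PCR copied them, so the 95% Wilson intervals below cover counting error only.

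Sense sites were found on all 4 genes, between 5 and 17 on each. At least 1 sense site was found on 67.3% of protein-coding genes. At least 5 sites were found on all 4 ubiquitin genes and on 14.4% of protein-coding genes, and at least 1 site after the 3′ end on 3 of the 4 and on 25.8% of protein-coding genes. Because the genes were selected on site counts of this list, nothing is read from these pairs of figures. The map of sites below shows where they fall along each gene.

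**Figure D1:**
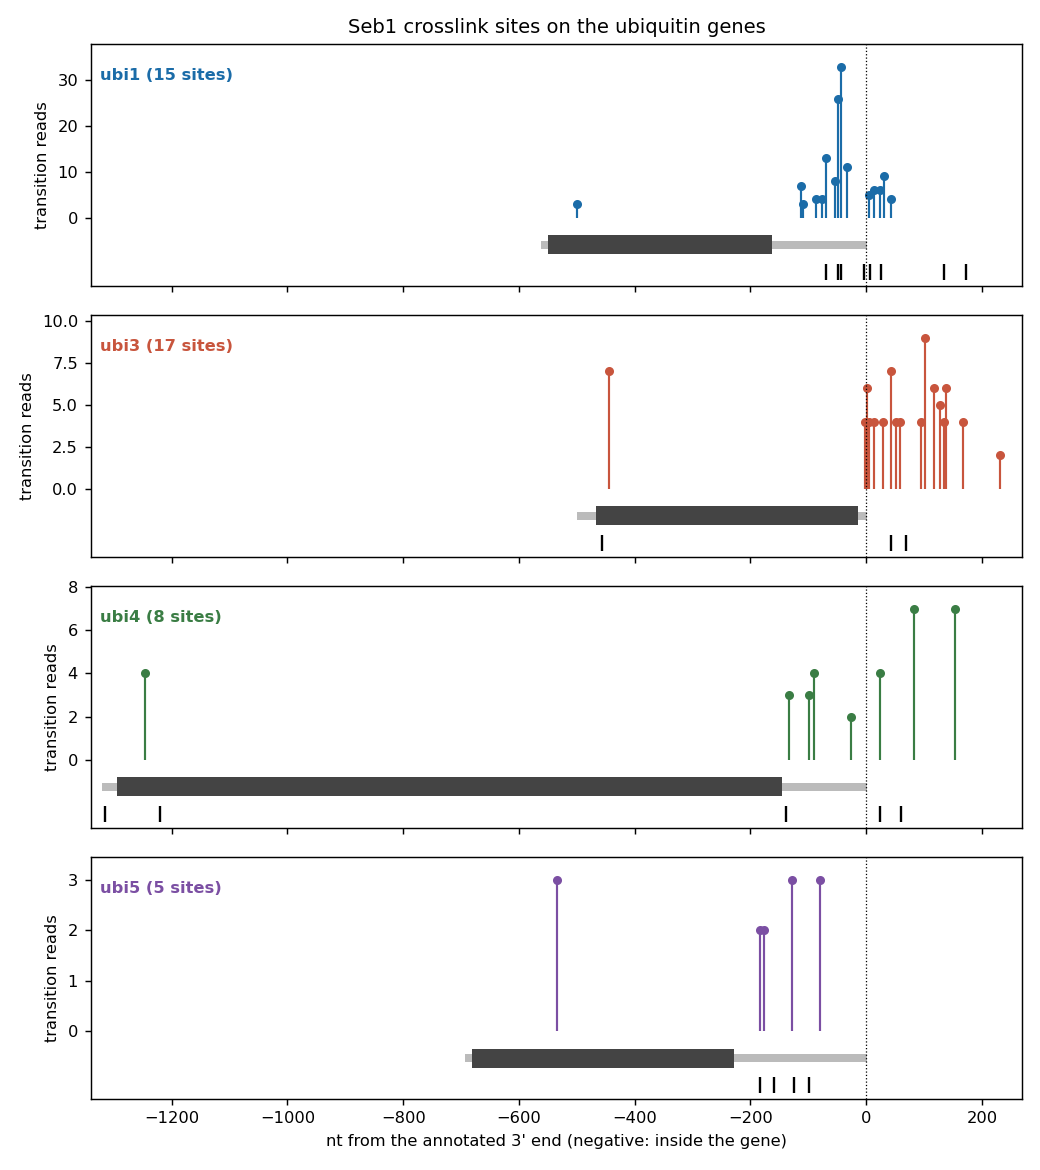
Crosslink sites of the 4 ubiquitin genes by distance in nt from the annotated 3′ end (x axis, dotted line at 0), with the number of transition reads on the y axis, scaled for each gene. Thin and thick bars show the untranslated and coding parts, and ticks under them show UGUA tetramers. Each gene has 1 site in its coding sequence, and the other 41 lie in the 3′ UTR or within 231 nt after it.

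ubi1 (SPAC11G7.04, I:3968996-3969558, plus strand) is 563 nt long, with a 3′ UTR of 163 nt. It held 15 sites, 1 in the coding sequence, 9 in the 3′ UTR and 5 after the 3′ end, with 142 transitions in 1638 covering reads (8.67%, interval 7.4 to 10.1%). The strongest site of the gene, 44 nt before the 3′ end, had 33 transitions in 208 reads. Its neighbour 49 nt before the 3′ end had 26 in 200, so 5 nt of the 3′ UTR held the 2 sites with the most transitions of all 4 genes. The 5 sites after the 3′ end lay at 4, 14, 24, 30 and 42 nt and carried between 4 and 9 transitions each. No site of ubi1 lay farther than 42 nt after the 3′ end.

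ubi3 (SPAC6G10.11C, I:3237895-3238394, minus strand) is 500 nt long, and its annotated 3′ UTR of 15 nt is the shortest of the 4. It held 17 sites, of which 15 lay after the 3′ end, 1 in the 3′ UTR and 1 in the coding sequence. Together they had 84 transitions in 1114 reads (7.54%, interval 6.13 to 9.24%). No single site stood far above the rest. The highest, 102 nt after the 3′ end, had 9 transitions in 67 reads, and the other 14 after the 3′ end had between 2 and 7. The sites reached 231 nt after the 3′ end. Just outside the 250 nt limit lay a site at 265 nt with 7 transitions in 27 reads and one at 489 nt with 2 in 12. These were the only further sites of any of the 4 genes up to 1000 nt after the 3′ end.

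ubi4 (SPBC337.08C, II:1044271-1045592, minus strand) is the longest of the genes at 1322 nt, 1149 nt of which code for protein. Its 8 sites comprised 1 in the coding sequence, 4 in the 3′ UTR and 3 after the 3′ end, with 34 transitions in 432 reads (7.87%, interval 5.69 to 10.8%). The highest transition counts were after the 3′ end, where the site at 82 nt had 7 in 139 reads and the site at 154 nt had 7 in 121. The 4 sites in the 3′ UTR had between 2 and 4 transitions and were covered by 13 to 28 reads.

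ubi5 (SPAC589.10C, I:3108199-3108893, minus strand) is 695 nt long, with a 3′ UTR of 229 nt, the longest of the 4. It held 5 sites and 13 transitions in 116 reads (11.2%, interval 6.67 to 18.2%). It was the only one of the 4 without a site after the annotated 3′ end. Its 4 sites in the 3′ UTR lay at 184, 176, 128 and 79 nt before the end and carried 2 or 3 transitions each. ubi3 and ubi5 encode nearly the same protein, with 1 differing residue. After the annotated 3′ end lay 15 of 17 sites of ubi3 and 0 of 5 of ubi5. This contrast depends on where the 3′ end is annotated, since the 3′ UTR is 15 nt long on ubi3 and 229 nt on ubi5. Past the largest fall in RNA-Seq coverage, described below, lay 12 of 17 and 4 of 5. The part of the annotation in the contrast was not tested.

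Of the 45 sites together, 23 lay after the 3′ end (51.1%, interval 37 to 65%), 18 in the 3′ UTR (40%, interval 27 to 54.5%) and 4 in coding sequence (8.89%, interval 3.51 to 20.7%). None lay in a 5′ UTR. Over the sites of all protein-coding genes, with each site counted once per gene, 24.2% lay after the 3′ end, 23.7% in 3′ UTRs, 40.7% in coding sequence and 7.05% in 5′ UTRs. The share after the 3′ end rested on ubi3. Without it, the share was 28.6% over the other genes, a value calculated after seeing the data. Weighting each site by its transitions gave 44.3%, and weighting by occupancy gave 83.2%.

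Neighbouring sites were close together on ubi1 and ubi3, where the median gap was 10 nt on each. On ubi4 it was 59 nt and on ubi5 48.5 nt. When sites no more than 10 nt from the next were joined, ubi1 had 6 clusters, ubi3 had 8, ubi4 had 7 and ubi5 had 4. Counted as clusters, ubi4 therefore held more than ubi1, the reverse of the order by sites. Sites of 1 cluster can share reads and are not independent of each other.

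The occupancy of a site is its transitions divided by a whole number, which was taken as the coverage of the same base in the RNA-Seq library. None of the 45 sites was at the maximum of 1, so this coverage could be read back at each of them. The strand setting behind it is not given in the sources used here. It ran from 157 to 22282 reads on ubi1, from 88 to 39758 on ubi3, from 150 to 2197 on ubi4 and from 82 to 26295 on ubi5. From the coding site to a site in the 3′ UTR it first rose on 3 of the genes. The rise was from 2842 to 22282 reads on ubi1, from 966 to 39758 on ubi3 and from 651 to 2197 on ubi4. Farther along the sites coverage fell steeply on each gene, at 1 point on ubi1, ubi3 and ubi4 and at 2 on ubi5.

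**Figure D2:**
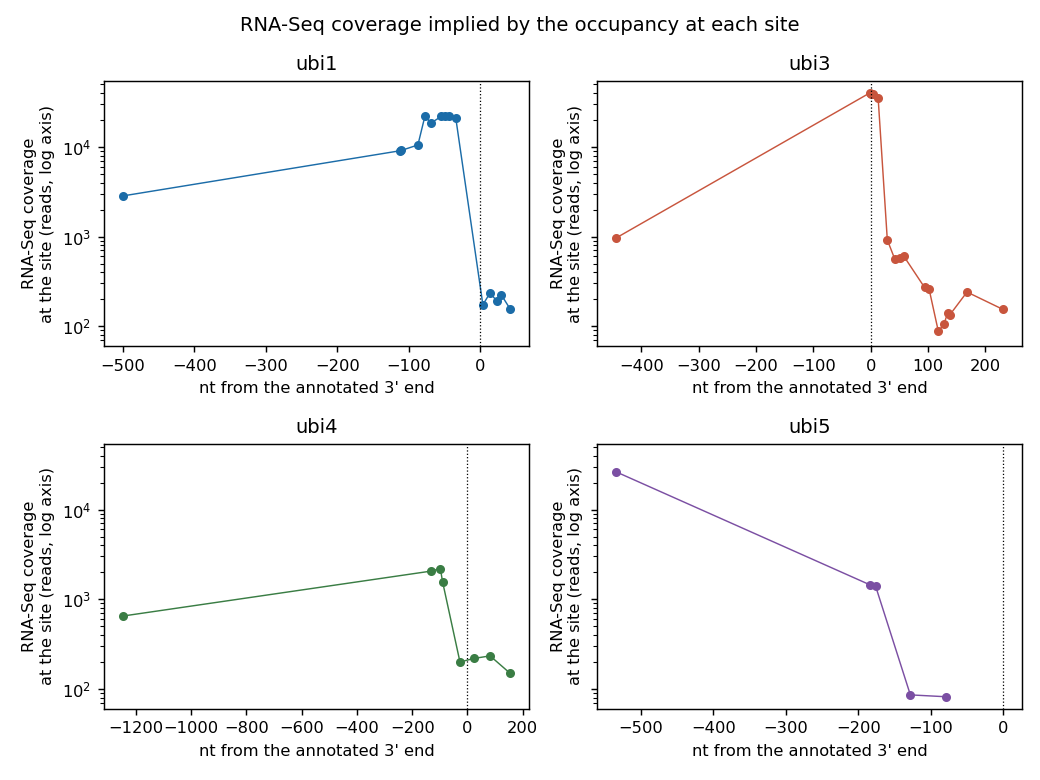
RNA-Seq coverage implied by the occupancy at each crosslink site (y axis, reads, log axis) against the distance in nt from the annotated 3′ end (x axis, dotted line at 0) for the 4 genes. Lines join neighbouring sites and cross long stretches without any site. Coverage fell 121-fold on ubi1 and 38.1-fold on ubi3 near the annotated 3′ end, and before it on ubi4 and ubi5.

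On ubi1 the coverage was 21086 reads 34 nt before the annotated 3′ end and 174 reads 4 nt after it, a 121-fold drop. On ubi3 it was still 35007 reads 13 nt after the annotated 3′ end and 918 reads at 29 nt, a 38.1-fold drop. The drop on ubi3 therefore came after the annotated end, and its sites at 1, 4 and 13 nt were covered by 35007 to 39075 reads, against 39758 at its site in the 3′ UTR. On ubi4 the drop came earlier, from 1570 reads 90 nt before the annotated end to 200 reads 27 nt before it, or 7.85-fold.

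The coverage of ubi5 fell in 2 steps, both inside the annotated gene. It was 26295 reads at the coding site, 534 nt before the end, and 1452 reads at the site 184 nt before the end, 18.1-fold lower. Between the sites at 176 and 128 nt before the end it fell again, from 1403 to 86 reads, or 16.3-fold. The sites 128 and 79 nt before the annotated end of ubi5, covered by 86 and 82 reads, were thus covered less than any site after the 3′ end of ubi1 or ubi4, where the lowest values were 157 and 150 reads. The steepest fall spanned the annotated end on ubi1, lay after it on ubi3 and lay before it on ubi4 and ubi5.

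Counted from the largest drop instead of the annotated end, 25 of the 45 sites (55.6%) lay past it, a count also chosen after seeing the data. They were 5 of 15 on ubi1, 12 of 17 on ubi3, 4 of 8 on ubi4 and 4 of 5 on ubi5. The drop was taken between neighbouring sites, so every gene has a site on each side of it by construction. On ubi5 these numbers depend on which of the 2 falls is taken.

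Transition counts differed far less across the drop than coverage did. The list holds no site with fewer than 2 transitions, so the counts could not fall as far as coverage. On ubi3 the median site had 4 transitions both before and past the drop. On ubi1 the medians were 7.5 before and 6 past it, on ubi4 3.5 and 5.5, and on ubi5 3 at the single site before and 2.5 past it. Because the split was made on the coverage in the denominator of occupancy, higher occupancy past the drop was largely set in advance. Nothing is read from it. Median occupancy was higher past the drop on every gene. Before and past the drop it was 0.000615 and 0.0287 on ubi1, 0.000114 and 0.0157 on ubi3, 0.002 and 0.0241 on ubi4, and 0.000114 and 0.0182 on ubi5. The highest occupancy of any of the 45 sites was 0.0682, 118 nt after the 3′ end of ubi3, where 6 transitions stood against a coverage of 88 reads.

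Occupancy carries the RNA level in its denominator, and the ubiquitin genes have abundant RNA. The median occupancy of their sites was 0.00664 at a median coverage of 651 reads. Over all nuclear sites the medians were 0.0515 and 58 reads. In order of occupancy summed over the sites, ubi3 (0.306) was followed by ubi1 (0.159), ubi4 (0.116) and ubi5 (0.0744), and among the 5113 protein-coding genes they took places 990, 1520, 1834 and 2211. By number of sites the same genes took places 17, 28, 182 and 514. The order of the 4 was the same by both measures, while their places in the list were not.

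The share of covering reads that carried the transition, the conversion, ran from 4.44% to 26.7% over the 45 sites. The 3 sites of ubi4 after the 3′ end had conversions of 5.04 to 5.79%, and its 5 sites up to the 3′ end 10.7 to 26.7% with wide intervals. On ubi1 the sites at 44 and 49 nt before the end had 15.9% (interval 11.5 to 21.4%) and 13% (interval 9.03 to 18.4%), while the site at 54 nt, 5 nt away, had 4.44% (interval 2.27 to 8.52%). These intervals do not overlap that of the site at 54 nt, so the difference between these neighbouring uridines, picked out after their values were seen, was larger than counting error. Of the 279 pairs of sites that share a gene, the intervals were apart in 8, of which 7 were on ubi1, 1 on ubi4 and 0 on ubi3 or ubi5.

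**Figure D3:**
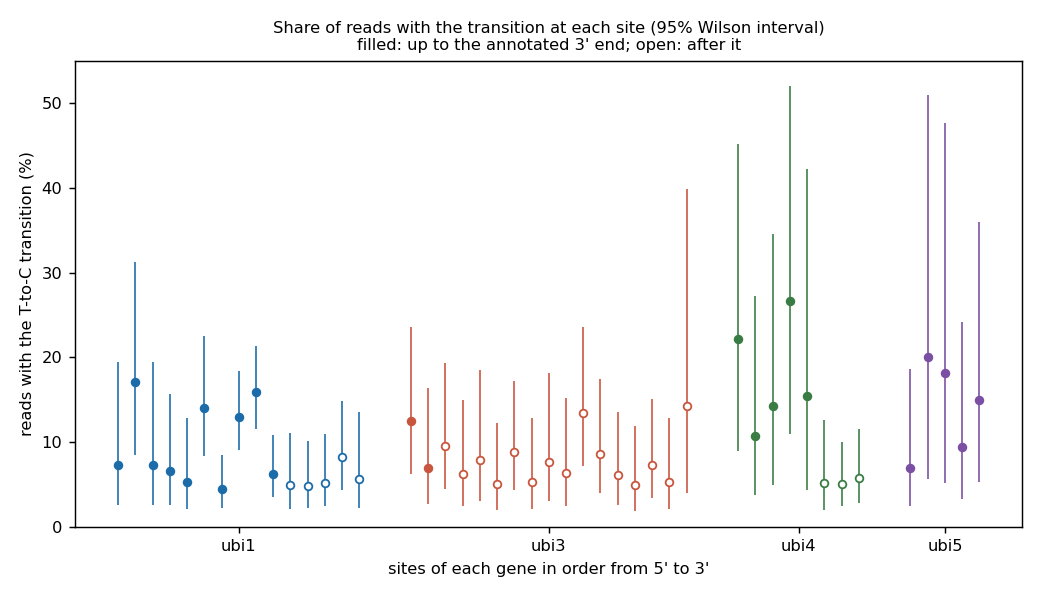
Percentage of covering reads with the T-to-C transition (y axis) at each of the 45 sites, in order from 5′ to 3′ within each gene (x axis), with 95% Wilson intervals for counting error. Filled points lie up to the annotated 3′ end and open points after it. The open points of ubi1 and ubi4 sit between 4.8% and 8.18%, and the intervals are apart in 8 of the 279 pairs of sites that share a gene.

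Pooled over the sites past the largest drop in coverage and over those before it, conversion was 5.75% (interval 4.06 to 8.09%) against 10% (interval 8.41 to 11.9%) on ubi1, and 5.71% (interval 3.73 to 8.66%) against 17.1% (interval 10.5 to 26.6%) on ubi4. The intervals were apart on both genes. On ubi1 this rested on few sites. Without the 3 sites on the U that begins UGUA, a choice made after seeing the data, conversion before the drop was 6.5% (interval 4.81 to 8.74%), which overlaps the interval past it. On ubi3 it was 7.18% (interval 5.61 to 9.15%) past the drop and 8.56% (interval 5.87 to 12.3%) before it. On ubi5 it was 13.7% (interval 7.61 to 23.4%) and 6.98% (interval 2.40 to 18.6%). The intervals of ubi3 and those of ubi5 overlap, so a difference was not detectable there at this depth. Sites with few reads are listed at high conversion only, since the list holds no site with fewer than 2 transitions. The site of ubi4 with 13 reads and 2 transitions already had 15.4%. On ubi4 the sites up to the 3′ end were covered by 13 to 28 reads and those after it by 77 to 139, and the part of this difference in depth in the result was not tested.

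UGUA is the tetramer that the study examined around Seb1 sites. It was searched within 25 nt on either side of a site on the crosslinked strand only, and overlapping matches were counted. It was present at 25 of the 45 sites (55.6%, interval 41.2 to 69.1%). Over all nuclear sites the share was 43.4% (interval 42.6 to 44.1%), which lies inside the interval of the ubiquitin genes. By gene, UGUA was near 12 of 15 sites on ubi1, 6 of 17 on ubi3, 3 of 8 on ubi4 and 4 of 5 on ubi5.

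The related tetramers GUAG and GUAA each overlap UGUA by 3 letters. GUAG was near 42.2% of the 45 sites (interval 29 to 56.7%) and 25.2% of all nuclear sites, and GUAA near 53.3% (interval 39.1 to 67.1%) and 35.7%. For both tetramers the share of all nuclear sites lay below the interval of the ubiquitin genes. The ribosomal protein genes had shares like those of the ubiquitin genes, with GUAG near 45.1% of sites on large-subunit and 37.6% on small-subunit genes, and GUAA near 51.1% and 51.7%. The sites of a gene overlap in the windows searched, so the same tetramer is counted for several of them. The intervals do not allow for this.

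By region the shares had wide, overlapping intervals. The tetramer was near 12 of 18 sites in 3′ UTRs (66.7%, interval 43.7 to 83.7%), 12 of 23 after the 3′ end (52.2%, interval 33 to 70.8%) and 1 of 4 in coding sequence. Over all protein-coding genes these shares were 47.7%, 62.5% and 27.4%. Past the largest drop in coverage, 16 of 25 sites had UGUA nearby (64%), and before it 9 of 20 (45%). Within ubi3 the sites with UGUA after the 3′ end were the 5 from 29 to 94 nt. Those at 1, 4 and 13 nt and the 7 from 102 to 231 nt lacked it, as the stretch printed above shows up to 138 nt.

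Read from the motif instead of from the site, the 4 genes with their 250 nt downstream held 20 UGUA tetramers. All 9 in 3′ UTRs had a site within 25 nt, as did 6 of 8 after the 3′ end, 1 of 2 in coding sequence and 0 of 1 in a 5′ UTR. Neighbouring tetramers can share the same sites. How often a tetramer has a site nearby over all genes was not computed, so nothing is read from these counts. The tetramers after the 3′ end without a site were both on ubi1, 134 and 173 nt past the end, where no site was listed. At least 1 UGUA is present in the 250 nt after the 3′ end on 82.6% of protein-coding genes, whether or not a site is near it. ubi5 holds none there and has no site there. ubi1 has 4 there, ubi3 and ubi4 2 each.

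The crosslinked base itself was the U that begins UGUA at 4 sites. This was the most frequent distance from a site to the first base of a tetramer, but only narrowly. Distances of -15, -5 and 1 nt were found at 3 sites each. Of the 4 sites on that U, 3 were on ubi1, 69, 49 and 44 nt before the 3′ end. They carried 13, 26 and 33 transitions, the 3 highest counts of the 45 sites. In the ubi1 window printed above, the tetramers TGTAgTGTA begin at the 2 uridines that carried 26 and 33. The other site on the U that begins UGUA was on ubi4, 23 nt after the 3′ end, with 4 transitions in 77 reads. The strongest site of ubi3, 102 nt after the 3′ end, and the sites of ubi4 at 154 nt and of ubi3 at 118 nt had no UGUA within 25 nt but had GUAG. All other sites without UGUA lacked GUAG too. Among them were the sites of ubi3 at 1, 4, 13, 128, 134, 138, 168 and 231 nt after the 3′ end.

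Each gene had 1 site in its coding sequence, and each of these sites lay in the first ubiquitin unit. Counted from the A of the start codon, they were at nucleotide 50 of ubi1, 24 of ubi3, 50 of ubi4 and 148 of ubi5. They carried 3 transitions in 41 reads, 7 in 56, 4 in 18 and 3 in 43. ubi1 and ubi4 thus shared the codon position, and their windows of 29 nt are shown because copies of the unit can share reads. The ubi1 window lies at chrI:3969044-3969072 on the plus strand and the ubi4 window at chrII:1045503-1045531 on the minus strand.
ubi1 coding: tatcacccttgaggtggagtcctctgaca
ubi4 coding: tattacattggaagttgaatcttccgata

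Ubiquitin has 76 residues, and the unit was identical in protein sequence in all the genes, while its 228 nt of coding sequence were 82.5 to 90.8% identical between genes. The 5 units of ubi4 were 93 to 99.6% identical to each other. Over the 31 nt around nucleotide 50, ubi1 and ubi4 differed at 10 bases, the first unit of ubi4 differed from each later unit at 4, and ubi1 differed from ubi5 at 2. All 45 sites lay in a stretch of 31 nt that occurs once in the reference, and 44 in one with no second copy within 2 mismatches. The exception was the coding site of ubi1, and whether any of its reads came from ubi5 was not tested.

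The same property bounds where sites could be seen. Of the coding sequence, 95.1% of 31 nt stretches of ubi1, 64.7% of ubi3, 67.1% of ubi5 and only 9.92% of ubi4 occur once in the reference. Outside coding sequence all stretches of the 4 genes occur once. How the authors placed reads that match several copies is not given in the sources used here, and its part in the low number of sites in coding sequence, above all in the 1149 nt of ubi4, was not tested.

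The genes have neighbours close by, and none of the 45 sites was shared with one on the same strand. On ubi1, 14 of 15 sites lay inside mct1, which is transcribed from the opposite strand and overlaps the end of ubi1. On ubi3, 6 sites lay opposite SPNCRNA.3448, on ubi4 3 sites lay opposite SPNCRNA.4991, and on ubi5 1 site lay opposite csr101. On the same strand, ecm14 reaches 74 nt into the window of ubi4 and SPNCRNA.3775 134 nt into that of ubi1, with 0 sites in either overlap. No antisense site was listed in any of the 4 windows, which was also so for 59.6% of protein-coding genes. The transition is read on the strand of the linked uridine, but RNA of both strands in the RNA-Seq coverage of an overlap cannot be told apart here.

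Other genes for parts of the ribosome are the nearest comparison, since 3 of the 4 ubiquitin genes encode a ribosomal protein as well. A median of 6 sites was found both on the 76 large-subunit and on the 55 small-subunit ribosomal protein genes. On the 152 protein-coding genes whose coverage at a site reached at least that of ubi4, the median was 7.5. Coverage is known only at listed sites, so a gene without a site cannot enter this group. A gene with more sites has more chances to enter it. Its median is therefore not that of genes matched for RNA level. The 152 genes include the 4 ubiquitin genes themselves and 79 ribosomal protein genes, and the median of the 148 others than the ubiquitin genes was 7. The 15 sites of ubi1, 17 of ubi3 and 8 of ubi4 were above each of these medians, and the 5 of ubi5 were below each. Of the 131 ribosomal protein genes, 10 had more sites than ubi1, 10 more than ubi3, 43 more than ubi4 and 77 more than ubi5. After the 3′ end, 2 of the 131 had more sites than the 15 of ubi3. Since the ubiquitin genes were chosen with their counts known, these comparisons are descriptions only.

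**Figure D4:**
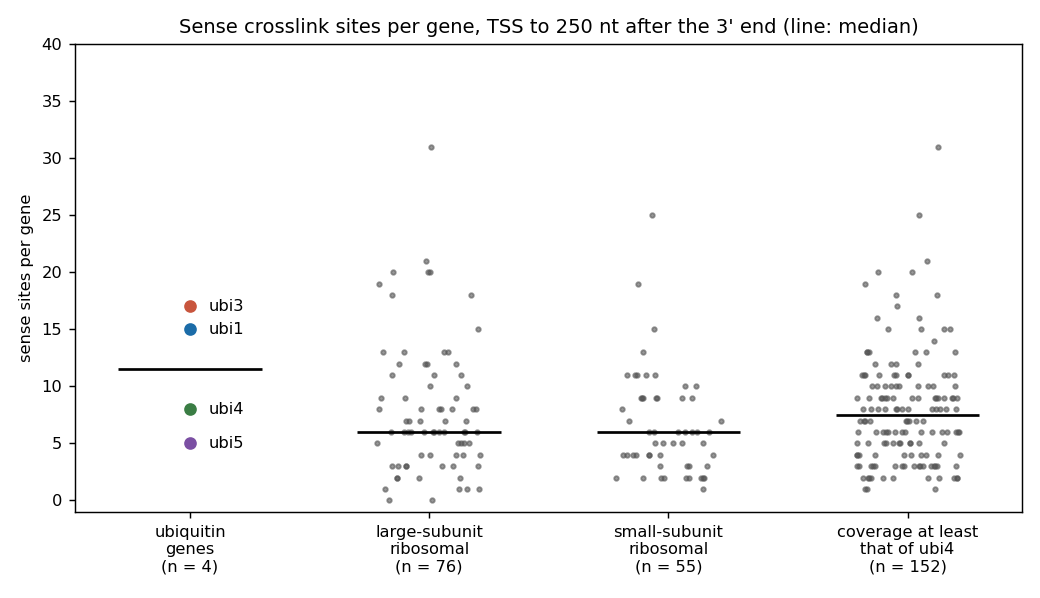
Sense sites per gene (y axis), counted to 250 nt downstream of the gene, for the 4 ubiquitin genes, the 76 large-subunit and 55 small-subunit ribosomal protein genes, and the 152 protein-coding genes with RNA-Seq coverage at a site at least that of ubi4, a group that includes the 4 and 79 of the ribosomal protein genes. Each point is a gene and horizontal lines are medians (11.5, 6, 6 and 7.5). ubi1 and ubi3 sit in the upper part of each comparison group and ubi5 below each median. The 4 genes were chosen with their counts known.

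Motif and position of the sites were set beside those of the ribosomal protein genes. UGUA was near 66.5% of the sites of large-subunit genes (interval 62.6 to 70.2%) and 64.9% of those of small-subunit genes (interval 59.9 to 69.7%), and 56.7% and 50% of sites lay after the 3′ end. The intervals of the ubiquitin genes include all of these shares. Pooled conversion was 8.27% on the ubiquitin genes, 5.92% and 6.95% on the large- and small-subunit genes and 12.5% over all nuclear sites. The median site had 67, 96, 55 and 13 covering reads in these groups. Sites with few reads are listed at high conversion only, and the part of depth in these shares was not tested. Per kb of gene and downstream window, ubi3 had 22.7 sites, ubi1 18.5, ubi5 5.29 and ubi4 5.09, against medians of 6.74 and 5.47 on the large- and small-subunit genes.

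ubi2 (SPAC1805.12C, I:2794057-2794775, minus strand) encodes the same protein as ubi1, with 0 differing residues over coding sequences that are 87.6% identical. It held 5 sites, against 15 on ubi1, with 16 transitions in 161 reads (9.94%). Of these, 1 lay in the first ubiquitin unit, at nucleotide 206, and 4 lay 66, 106, 128 and 237 nt after the 3′ end. No site lay in its 3′ UTR of 281 nt, where ubi1 had 9. Coverage at the sites of ubi2 fell 154-fold, from 10901 reads at the coding site to 71 at 66 nt after the 3′ end. All 5 sites lay opposite SPAC1805.10, and UGUA was near 3 of them. Read from the motif, the 1 UGUA in the 3′ UTR of ubi2 had no site within 25 nt, and all 3 after the 3′ end had one.

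The genes whose products act on ubiquitin were described from lists by symbol. The ubiquitin-like modifiers had a sense site on 4 of 6 genes, with at most 2 (urm1, a modifier that also acts in tRNA thiolation). The E1 and E2 enzymes, which activate ubiquitin or a ubiquitin-like modifier and pass it on, had one on 9 of 15, with at most 9 on uba1, the ubiquitin-activating enzyme. The deubiquitinating enzymes, which cut ubiquitin free, had one on 17 of 20, with at most 11 on ubp15. The proteasome list was drawn up from names of the regulatory particle only. A sense site was found on 17 of its 22 genes, with at most 6, on rpn3 and mts4. The proteasome list includes pcr1, a transcription factor that shares an older name with rpt2, and without it the count was 16 of 21. Without hus5 and ubc12, which pass on the modifiers SUMO and NEDD8, it was 9 of 13 for the E1 and E2 enzymes.

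At least 1 sense site was thus found on 66.7%, 60%, 85% and 77.3% of these lists as matched, beside the 67.3% of protein-coding genes given above. Sites after the 3′ end were found on 0 of 6 modifiers, 2 of 15 E1 and E2 enzymes and 5 of 20 deubiquitinating enzymes. They were found on 5 of 22 genes of the proteasome list, beside 25.8% of protein-coding genes. ubi1 and ubi3 each had more sites than any gene of the lists. The ubiquitin genes were chosen with their counts known, so nothing is read from this. The lists differ from the ubiquitin genes in length and RNA level, and the part of either was not tested.

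The distribution of sites along a gene was compared over 10 bins, 5 of equal length along the gene and 5 bins of 50 nt after it, with 732 other protein-coding genes that had at least 5 sites. The genes most like ubi1 were the ribosomal protein genes rps3001, rpl2002 and rpl1001, with Pearson r of 0.988, 0.985 and 0.979. The most like ubi3 were knh3, rps1802 and eft202, at 0.963, 0.887 and 0.874, and all 3 had most of their sites after the 3′ end. For ubi4 they were kap111, rpl2102 and rpl2301, each at 0.943, and for ubi5 ahk1 and rnf10, each at 1.000, and dbp2 at 0.957. With 5 sites in 10 bins, an r of 1.000 says only that 5 sites fell into the same bins. Among the 4 genes themselves r was highest for ubi1 and ubi4 (0.85) and lowest for ubi3 and ubi5 (-0.44), the pair with nearly the same protein. The bins are set by the annotated ends, and the annotated 3′ UTRs of ubi3 and ubi5 are 15 and 229 nt long. All these values come from 1 library and are descriptions.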

How the data were processed

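The members and gene lists were chosen with earlier results of these data known. The authors deposited, for 1 PAR-CLIP library, raw counts of transition reads and of covering reads per site, a p-value per site (at most 0.00499, used only to describe the list) and an occupancy, a ratio of transitions to a whole number, at most 1. The whole number was recovered at all 15824 sites within a relative tolerance of 1e-06, which large numbers pass by construction, and was taken as coverage in the WT RNA-Seq library. At the 908 sites at occupancy 1 it was not used. The submitters' processing notes name Bowtie 1.1.1, SAMtools and the build ASM294v2 with no role given, and the site caller and its settings are not given in the sources used here. Sites were matched by position to ASM294v3 and its RefSeq annotation after checking that all 15789 nuclear sites fall on a T. The 31 nt search for copies counted both strands. Summed over sites the list holds 914426 covering reads and 114500 transitions. Named were the 4 genes, ubi2, genes overlapping a window, the gene with most sites in each list, and the 3 genes most like each member by Pearson r. The short windows shown first are of sites with the most transitions in ubi1 and ubi5, with ties broken by covering reads. The ubi1 window after the 3′ end is of the site with the most transitions in that region only. The 2 stretches and the pair of coding windows were chosen after the sites were seen. No test was made, since there is 1 library. Tables were handled in pandas 2.3.3 with numpy 2.4.6 under Python 3.11.15, figures were drawn with matplotlib 3.10.9, and scipy 1.17.1 served to check the intervals. The assignment of sites to genes was tested on simulated data, where the planted counts of 200 of 200 genes were recovered. Alternatives are given in the closing section. In the list of deubiquitinating enzymes, pan2, known as a deadenylase subunit, was found by another name, as was the transcription factor pcr1 in the proteasome list.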

Additional observations from a re-analysis of the deposited data

How the results depend on the processing

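Of 55 values computed under other settings, 37 stayed within the spread used to judge them and 18 moved. Joined into clusters, ubi1 had 6, ubi3 had 8 and the 4 genes together 25, against 15, 17 and 45 sites. With a limit of 100 nt after the 3′ end, ubi3 had 10 sites. With at least the median coverage, or with at least 3 transitions, ubi5 had 3 sites. UGUA within 10 nt of a site was found at 35.6% of sites. The share of all nuclear sites was computed within 25 nt only, so it cannot be set beside this value. The share of sites after the 3′ end was 83.2% weighted by occupancy and 28.6% without ubi3. Without the 3 sites on the U that begins UGUA, conversion before the drop in coverage of ubi1 was 6.5%, against 10%. Ranked by sites per kb, ubi1 was at place 11, ubi3 at 7 and ubi5 at 151. Ranked by summed occupancy, ubi1 was at 1520, ubi3 at 990, ubi4 at 1834 and ubi5 at 2211. Among genes of all Pol II classes ubi3 was at place 27. The cause of these moves was not tested, except where the setting itself leaves out sites. The conversion without these sites, the counts past the largest drop in coverage and those without ubi3 were added after seeing the data. No paired analysis was possible because there is 1 library and no test. Depth limits single sites most on ubi5, where sites rested on 10 to 43 reads.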
